A study of Xenopus laevis with 12 samples.

Results

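Neurobots were compared with biobots, the plain animal caps that carry no implant, gene by gene. Both are made from ectoderm of the blastula of the frog Xenopus laevis (stage 9), which closes into a swimming ball of skin covered with multiciliated cells. A biobot is such a cap alone. A neurobot is a cap into which clumps of cells were placed, taken from other animal caps that had been dissociated and kept apart for some hours before they were brought together again, a treatment that turns animal cap cells toward a neural fate. The question was which genes had higher and which had lower levels in the RNA of the whole bot with the implant. The comparison held 8 of the 12 libraries of the series, 4 pools of neurobots (NB1 to NB4, of 14, 12, 12 and 12 bots) and 4 pools of biobots (XB1 to XB4, of 16, 6, 6 and 5 bots). The other 4 libraries came from sham neurobots, whose implant was brought together again soon after dissociation, and were left out of the comparison. NB1 and XB1 were sent for sequencing before the other pools. The age of the bots at lysis is not given in the sources used here.

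Libraries held 28633187 to 37985824 counts in neurobots and 29664449 to 35995421 in biobots. Of the 44478 genes of the table, 24082 passed a filter on low counts (about 10 counts in at least 4 libraries) and were tested with edgeR's quasi-likelihood test. Levels are counts scaled to library size (CPM), differences are log2 neurobots minus biobots ± SE, and a gene is called at an adjusted p under 0.05. Whole pools were sequenced, so fewer cells of a type and less RNA per cell cannot be told apart. Levels are relative to each library, so RNA of the implant can also lower the share of cap genes whose own amount is unchanged. A lower level is therefore not by itself a loss. The libraries were made without strand, and overlapping or antisense genes are uncertain. So are the paired copies of this genome (homeologs, marked .L and .S), which can share reads.

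The animal cap normally gives the larval epidermis. Its outer layer holds goblet cells, and cells that move in from below become multiciliated cells, which drive fluid with beating cilia, ionocytes, which pump protons with a vacuolar ATPase under the transcription factor foxi1, and small secretory cells, which hold serotonin. Neural fate in the same cells is the state reached when BMP signalling is low, and forebrain and eye are the character such cells take unless a posterior signal is present. Neural tissue brings neurons, the progenitors that line it and, in the head, retina and pigment epithelium.

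The labels were checked against cell type markers. All 9 progenitor markers (sox2, sox3, pax6, zic1 and msi1) and 13 of 14 neuronal markers were called higher in neurobots. Of these, 3 progenitor markers and 1 neuronal marker had no count in any biobot library, and others were near 0 there. Such genes entered the test only through neurobots and had to be higher to be called. The neuronal markers summed to 604, 942, 618 and 648 CPM in NB1 to NB4 against 151 to 156 CPM in biobots. Most of the biobot sum was a single gene, syt1.L, a vesicle calcium sensor, which stood at 145 to 153 CPM there and was the neuronal marker called lower. Of other tissues, the markers of blood (8 genes), endoderm (6) and notochord (4) did not pass the filter on low counts. The same held for all but 2 of 9 for skeletal muscle and all but 1 of 6 for endothelium. The endothelial cdh5.L was among those not tested, although it was expressed in NB2 to NB4. Of 3 heart markers tested, 2 were higher, nkx2-5.L and nkx2-5.S. XB3 held more blood marker reads than the other pools, 11.2 CPM in all against 0.714 to 1.64 CPM. Over a wider list of blood and macrophage genes the sum was 720 CPM in XB3 and 9.71 to 18.3 CPM in the other neurobot and biobot pools.

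Across all tested genes, 31.8% were called, 19.5% higher and 12.3% lower in neurobots, and every count below is to be read against these shares. The direction depended on the level in biobots. Of the 1093 genes under 0.1 CPM in biobots, 1089 were higher, but such genes entered the test only through neurobots and had to be higher to be called. Between 0.1 and 1 CPM, 38.5% were higher and 1.55% lower, and many of these genes also had few counts in biobots. Between 1 and 10 CPM, 18.6% were higher and 8.07% lower. Between 100 and 1000 CPM the shares were 6.38% and 30.9%, and among the 95 genes at 1000 CPM or more 5.26% and 28.4%. Up to 1000 CPM, higher calls thus became rarer and lower calls more frequent as the level in biobots rose. The level in biobots is also a term of the tested difference, and a low level leaves little room for a lower call. Part of this trend was therefore set by the split itself. Because the filter can set a count, the lists below in which a called gene lacked a level in biobots, meaning at least 10 counts in every biobot library, are also counted over the members that had one. Among all 20601 such genes 12.5% were higher and 14.3% lower.

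**Figure D1:**
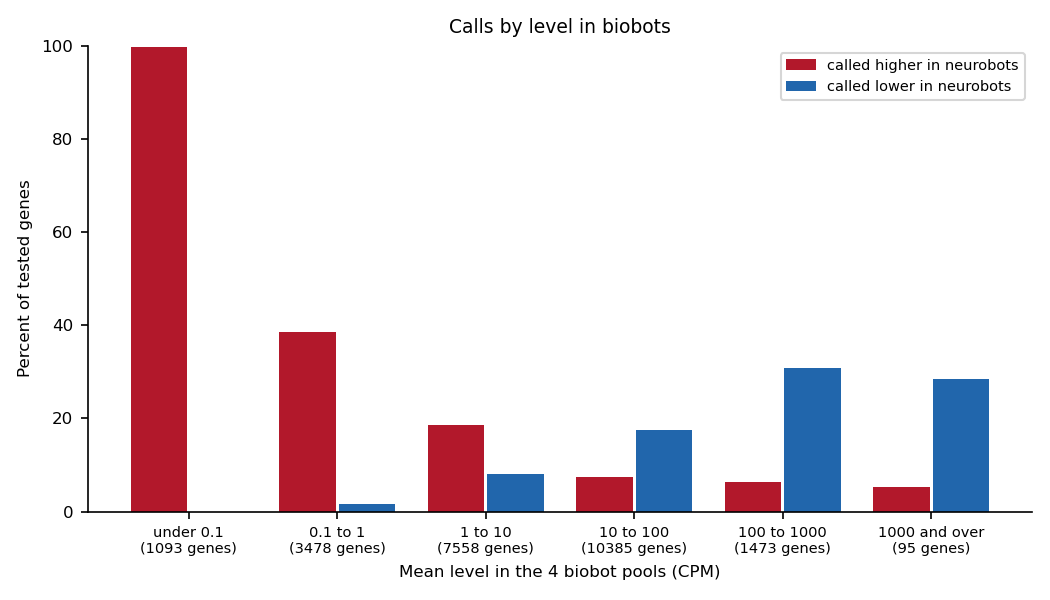
Percent of tested genes called higher (red) and lower (blue) in neurobots, in 6 bins of the mean level in biobots (CPM, number of genes in parentheses). The red bar falls from left to right and the blue bar rises to 30.9% between 100 and 1000 CPM; genes in the leftmost bin entered the test only through neurobots.

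NB1 stood nearest to biobots in 60.9% of the genes called higher and in 51.8% of those called lower. The groups did not overlap in 87.9% of the genes called higher and in 87.0% of those called lower. A call rests on the distance between the groups, so these shares follow largely from it. The share over all tested genes is not given here. NB1 lay above XB1, the biobot pool of its own submission, in 94.4% of the genes called higher and below it in 94.4% of those called lower. Both pools were in the fit that made these calls, so the agreement follows in part from the selection. Without NB1 and XB1, 26.8% of 25107 genes were higher and 19.0% lower, and without NB1 alone 25.2% and 18.3%. Leaving out 1 pool also lets more genes pass the filter. Where leaving out a pool, or scaling by library size alone, moved a list's count of more than 5 by over 1.5 times, or took a smaller one to 8 or more, the count follows in parentheses. Beside a count of 0 by edgeR, the parentheses give the number of genes at an unadjusted p under 0.05 and the number called by DESeq2, which was run on a wider set of genes. For the genes named below, the pools of the groups did not overlap unless an overlap is stated. Longer genes were called higher more often, from 14.9% in the shortest of 4 equal groups to 25.3% in the longest. The shortest length group took 48.3, 47.7, 36.7 and 37.7% of the counts in NB1 to NB4 and 40.2 to 44.6% in biobots, so NB1 and NB2 lay on one side of biobots in this respect and NB3 and NB4 on the other. The part of gene length in the calls was not tested.

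The neuronal cytoskeleton and differentiation genes stood apart most plainly. Of 75 listed genes 72 were tested, 68 were higher and 0 (0 unadjusted, 0 by DESeq2) lower, with a median log2 difference of 5.55 (values of genes near 0 in biobots set to their bound); of the 17 with a level in biobots, 15 were higher and 0 lower. Their summed level was 1047, 2012, 1574 and 1649 CPM in NB1 to NB4 and 71.8 to 94.2 CPM in biobots. The neuronal tubulin tubb2b.S stood at 205, 276, 178 and 201 CPM in NB1 to NB4 and 0.326, 0.0824, 0.455 and 0.289 CPM in XB1 to XB4 (log2 difference 9.56 ± 0.41, adjusted p = 8.98e-07). stmn2.L (chromosome 6L, 133029564 to 133051976 in assembly version 10.1), a regulator of microtubules in growing axons, stood at 53.9, 74, 38.9 and 42.3 CPM in NB1 to NB4 and had no count in any biobot library. Against a floor of 3 counts in each biobot library it was at least 543-fold higher in neurobots, adjusted p = 5.76e-06. For both genes NB1 lay within the range of the other neurobot pools. tuba1a.L, an alpha tubulin of neurons, stood at 177, 296, 178 and 199.8 CPM in NB1 to NB4 and 5.25, 2.39, 2.47 and 2.76 CPM in XB1 to XB4 (log2 difference 6.05 ± 0.34, adjusted p = 3.2e-06). Per length of transcript, tubb2b.S reached 105 to 167 FPKM in neurobots while tubb4b.L, a beta tubulin used in cilia, stood at 668 to 978 FPKM there and at 977 to 1273 FPKM in biobots.

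The bHLH factors that commit cells to neurons were 23 tested of 43, with 22 higher and 0 (0 unadjusted, 0 by DESeq2) lower (3 higher and 0 lower of the 3 with a level in biobots). neurod1.L, which drives neuronal differentiation, had 16, 25.9, 16.9 and 19.6 CPM in NB1 to NB4 and 1 count in the 4 biobot libraries together (adjusted p = 1.13e-06). Its homeolog neurod1.S had 14.5, 22.5, 20.8 and 21.9 CPM and 4 counts in the 4 biobot libraries together (adjusted p = 2.64e-06). These factors are expressed while neurons are being born, and their levels were even across the neurobot pools, NB1 included.

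Neural plate and progenitor factors were higher in 66 of 85 tested members and lower in 1; of the 29 with a level in biobots, 14 were higher and 1 lower. pax6.L, a factor of forebrain and eye, had 11, 21.4, 30.7 and 23.2 CPM and no biobot count (at least 224-fold higher in neurobots, adjusted p = 2.49e-05, against 3 counts in each library). otx2.L, which marks anterior neural tissue and the cement gland, was measured in both groups at 34.2, 112, 108 and 80.4 CPM in NB1 to NB4 and 8.04, 9.78, 8.29 and 9.98 CPM in XB1 to XB4 (log2 difference 3.21 ± 0.34, adjusted p = 8.03e-05). For otx2.L, NB1 was the lowest neurobot pool, yet it lay above every biobot pool. The member called lower was hes4.S, a Notch target, which was lower with 20.8, 11.1, 15.1 and 12.8 CPM in NB1 to NB4 and 17.1, 30.2, 33.9 and 31.5 CPM in XB1 to XB4 (log2 difference -0.91 ± 0.26, adjusted p = 0.0211, and 0.0513 to 0.0597 without NB2, NB4, XB2, XB3 or XB4), and NB1 lay inside the biobot range.

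Hox genes, which pattern the hindbrain and spinal cord, did not follow the other neural lists. Only 6 of 56 reached the level for testing, 0 (0 unadjusted, 0 by DESeq2) were higher and 4 were lower. hoxa3.S stood at 0.663, 0.254, 0.351 and 0.64 CPM in NB1 to NB4 and 2.5, 2.28, 4 and 3.6 CPM in XB1 to XB4 (log2 difference -2.69 ± 0.41, adjusted p = 0.000683) and hoxa2.S at 0.379, 0.0564, 0.0293 and 0.501 CPM in NB1 to NB4 and 1.09, 1.4, 1.82 and 2.47 CPM in XB1 to XB4 (log2 difference -2.79 ± 0.71, adjusted p = 0.0126). hoxa3.L was lower as well. The posterior gene hoxb9, of the spinal cord, was not tested in either copy because its counts were too low. The genes named as lower are anterior Hox genes at a few CPM, and their source in biobots was not tested.

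Most tested genes of the synapse were called higher, but not most of those with a level in biobots. All those called lower had a level in biobots, as did 2948 of the 2961 genes called lower among all tested genes. Of 64 tested synaptic vesicle and release genes 42 were higher and 5 lower. Of the 27 with a level in biobots, 6 were higher and 5 lower. Summed over this list the level was 884, 941, 968 and 972 CPM in NB1 to NB4 and 905 to 987 CPM in biobots. cplx1.S, complexin, a clamp of vesicle fusion, had 21.1, 41, 25.6 and 31.6 CPM in NB1 to NB4 and 1 count in the 4 biobot libraries together (adjusted p = 1.18e-06). In the other direction syt1.L stood at 87.5, 79.5, 80.2 and 76.7 CPM in NB1 to NB4 and 146, 146, 145 and 153 CPM in XB1 to XB4 (log2 difference -0.86 ± 0.14, adjusted p = 0.000886) and sh3gl2.S, an endophilin of vesicle recycling, at 51.5, 31, 35.4 and 40.7 CPM in NB1 to NB4 and 64.2, 114, 111 and 129.9 CPM in XB1 to XB4 (log2 difference -1.40 ± 0.24, adjusted p = 0.00137). rab3d.S, slc18a1.S and syt16.L were lower as well.

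On the receiving side, synaptic adhesion and postsynaptic scaffold genes were higher in 43 and lower in 3 of 61. Of the 24 with a level in biobots, 9 were higher and 3 lower. Summed over this list the level was 746, 717, 836 and 849 CPM in NB1 to NB4 and 789 to 1005 CPM in biobots. shisa6.L, a partner of AMPA receptors, had 0.569, 7.73, 5.5 and 5.79 CPM and no biobot count (at least 50.9-fold higher in neurobots, adjusted p = 0.000908). Here NB1 was far below the other neurobot pools. The calmodulin kinase genes split, with camk2d.L at 89, 50, 50.9 and 57.2 CPM in NB1 to NB4 and 36.7, 15.4, 17.1 and 12 CPM in XB1 to XB4 (log2 difference 1.61 ± 0.34, adjusted p = 0.00486) and camk2g.L at 238, 198, 232 and 240.4 CPM in NB1 to NB4 and 503, 433, 381 and 477 CPM in XB1 to XB4 (log2 difference -0.98 ± 0.17, adjusted p = 0.0015).

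Glutamate receptor genes were higher in 24 of 31 tested (of 53 in all) and lower in 0 (0 unadjusted, 0 by DESeq2); of the 7 with a level in biobots, 2 were higher and 0 lower. GABA and glycine receptors were higher in 9 (18 without NB1 or XB4, 19 without XB1, 17 without XB2 or XB3) of 15 and lower in 0 (1 unadjusted, 1 by DESeq2) (2 higher and 0 lower of the 4 with a level in biobots). gabbr1.L, a subunit of the metabotropic GABA receptor, stood at 5.62, 6.74, 13.3 and 10.8 CPM in NB1 to NB4 and 0.833, 0.851, 0.585 and 0.77 CPM in XB1 to XB4 (log2 difference 3.58 ± 0.34, adjusted p = 4.93e-05). Acetylcholine and monoamine receptors gave a mixed picture, 9 (26 without NB1, 24 without XB1 or XB3, 22 without XB2 or XB4) higher and 7 lower of 29; of the 12 with a level in biobots, 0 were higher and 7 lower. The lower ones included the serotonin-gated channel htr3a.L, at 137, 70.6, 74.7 and 69.9 CPM in NB1 to NB4 and 222, 185, 195 and 229.9 CPM in XB1 to XB4 (log2 difference -1.24 ± 0.24, adjusted p = 0.0027), and a gene annotated as 5-hydroxytryptamine receptor 3A (LOC108714002), at 143, 85.9, 73.9 and 80.6 CPM in NB1 to NB4 and 266, 323, 332 and 379 CPM in XB1 to XB4 (log2 difference -1.76 ± 0.24, adjusted p = 0.000332). The higher ones included the nicotinic subunit chrna5.L, at 2.46, 4.06, 2.87 and 2.9 CPM in NB1 to NB4 and 0.145, 0.412, 0.423 and 0.321 CPM in XB1 to XB4 (log2 difference 3.22 ± 0.41, adjusted p = 0.000215).

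Voltage-gated sodium and calcium channels were higher in 31 and lower in 2 of 47 tested (2 higher and 2 lower of the 15 with a level in biobots), and potassium channels in 32 and 6 of 72 (5 higher and 6 lower of the 28 with a level in biobots). A sodium channel whose description names a type 2 subunit alpha (LOC108702974) had 7.04, 6.8, 18.3 and 16.3 CPM and 2 counts in the 4 biobot libraries together (adjusted p = 1.52e-05). kcna4.S, a fast potassium channel, ran the other way with 3.38, 1.02, 1.26 and 1.34 CPM in NB1 to NB4 and 9.56, 35.1, 25.1 and 95.2 CPM in XB1 to XB4 (log2 difference -4.56 ± 0.69, adjusted p = 0.000624), and the biobot pools spread widely among themselves. Genes that make or take up transmitters were higher in 18 and lower in 3 of 37 (6 higher and 3 lower of the 23 with a level in biobots). The lower ones were these 3. gad1.2.S, a GABA-making enzyme, stood at 24.2, 6.29, 5.88 and 7.04 CPM in NB1 to NB4 and 56.7, 38.8, 29.2 and 44.6 CPM in XB1 to XB4 (log2 difference -1.96 ± 0.45, adjusted p = 0.0072). gls2.L, which makes glutamate from glutamine, stood at 17.8, 18, 12.6 and 18.1 CPM in NB1 to NB4 and 27.4, 44.7, 56.2 and 56.9 CPM in XB1 to XB4 (log2 difference -1.48 ± 0.24, adjusted p = 0.00104). tph1.L, which makes serotonin in small secretory cells, stood at 2.05, 0.592, 0.995 and 0.529 CPM in NB1 to NB4 and 2.79, 4.34, 3.9 and 8.83 CPM in XB1 to XB4 (log2 difference -2.25 ± 0.51, adjusted p = 0.00675). For gad1.2.S and tph1.L, NB1 was the neurobot pool nearest to the biobots.

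Neuropeptide and hormone precursors and their processing genes were higher in 13 (23 without NB1 or XB3, 22 without XB1, XB2 or XB4) and lower in 1 of 17 tested (1 higher and 1 lower of the 4 with a level in biobots). npy.S, the precursor of neuropeptide Y, had 9.85, 10.2, 6.7 and 8.74 CPM and no biobot count (at least 92.3-fold higher in neurobots, adjusted p = 1.32e-05). The prohormone convertase pcsk1.S was lower, at 1.61, 0.818, 1.61 and 2.31 CPM in NB1 to NB4 and 6.3, 9.37, 8.39 and 16.9 CPM in XB1 to XB4 (log2 difference -2.69 ± 0.39, adjusted p = 0.000489). The homeologs of cpe, a peptide-trimming carboxypeptidase, differed, cpe.L being called higher at 32, 28.8, 34.7 and 31.4 CPM in NB1 to NB4 and 3.77, 1.79, 2.31 and 3.31 CPM in XB1 to XB4 (log2 difference 3.51 ± 0.25, adjusted p = 8.86e-06) and cpe.S having 33.3, 25.1, 24.6 and 28.9 CPM in NB1 to NB4 and 21.5, 32.5, 35.1 and 62.9 CPM in XB1 to XB4 with overlapping pools (log2 difference -0.44 ± 0.29, adjusted p = 0.268, and 0.037 without NB1 and XB1). Axon guidance ligands and receptors were higher in 66 and lower in 5 of 120; of the 86 with a level in biobots, 35 were higher and 5 lower. sema6d.S, a semaphorin, stood at 55.8, 44, 70.4 and 67.2 CPM in NB1 to NB4 and 28.2, 15.7, 12 and 13.3 CPM in XB1 to XB4 (log2 difference 1.78 ± 0.28, adjusted p = 0.000812), whereas sema3b.L, a secreted semaphorin, stood at 18.4, 19.6, 36.4 and 37.9 CPM in NB1 to NB4 and 41.6, 64.7, 51.1 and 39.7 CPM in XB1 to XB4 (log2 difference -0.81 ± 0.28, adjusted p = 0.0448, and 0.0587 to 0.12 without NB1, NB2, XB2 or XB3, and 0.197 scaled by library size alone, and 0.0573 with a filter of 1 CPM in 4 libraries, and 0.0529 without NB1 and XB1). Among RNA-binding and splicing factors 23 of 39 were higher and 2 lower (9 higher and 2 lower of the 22 with a level in biobots). celf3.S, a neuronal one, had 8.97, 6.4, 23.4 and 19.7 CPM and 2 counts in the 4 biobot libraries together (adjusted p = 2.29e-05), and the epithelial splicing regulator esrp1.L was lower at 156, 169, 224 and 224 CPM in NB1 to NB4 and 370.4, 380.5, 380.2 and 426 CPM in XB1 to XB4 (log2 difference -1.01 ± 0.19, adjusted p = 0.00191).

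**Figure D2:**
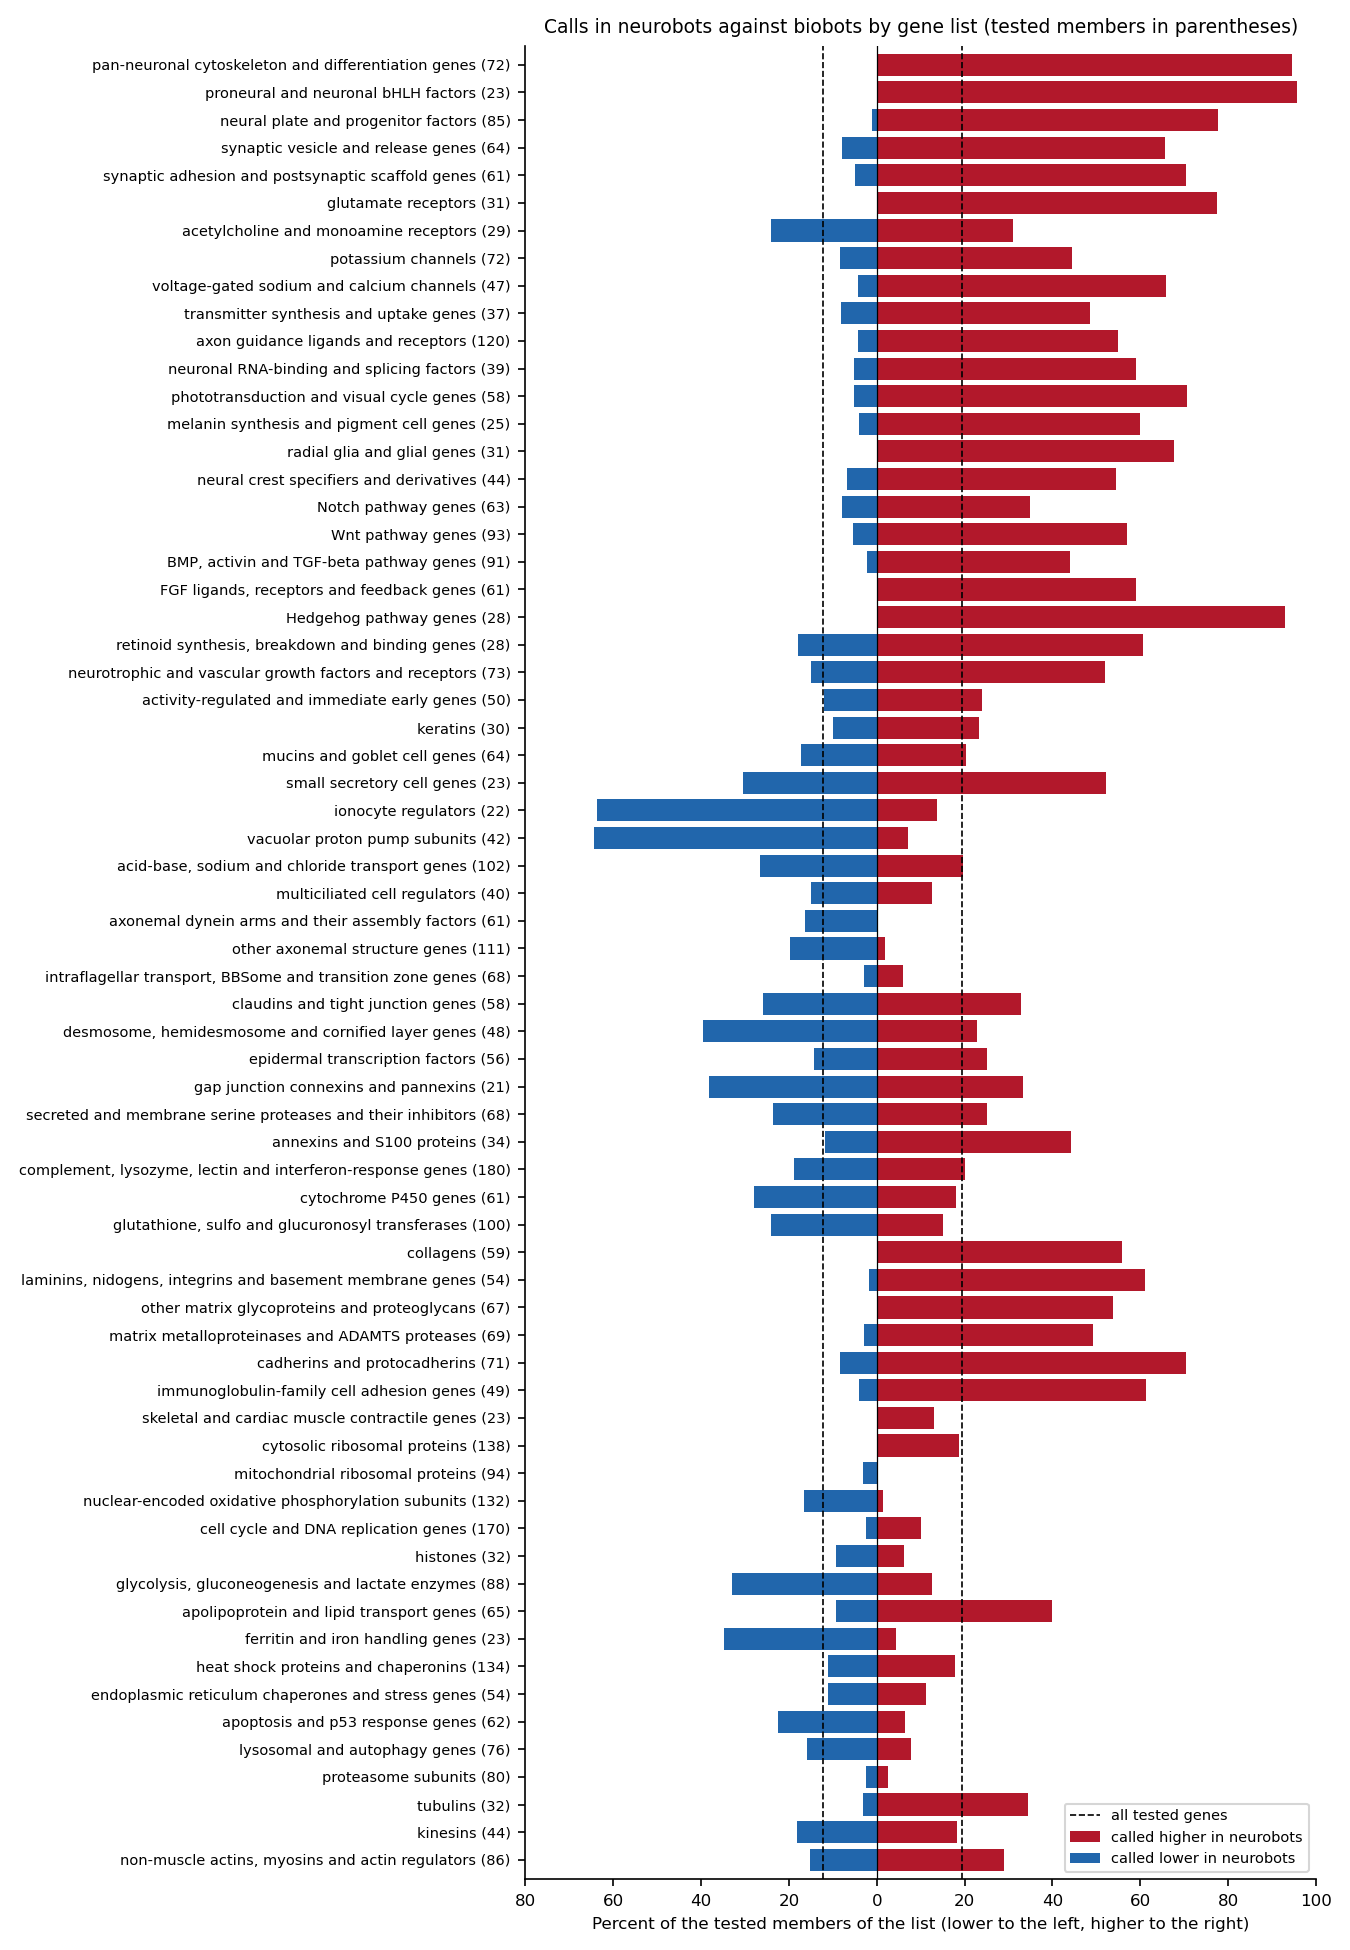
Percent of the tested members of each gene list called higher (red, right) and lower (blue, left) in neurobots, for the lists with at least 20 tested members, with dashed lines at the shares over all tested genes (19.5% and 12.3%). Neuronal, Hedgehog and progenitor lists reach furthest to the right, and ionocyte regulators and proton pump subunits furthest to the left.

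Genes of the retina and of its pigment epithelium were among those higher in neurobots. Of 58 tested phototransduction and visual cycle genes 41 (70 without NB1, 67 without XB1 or XB3, 63 without XB2 or XB4) were higher and 3 lower; of the 15 with a level in biobots, 5 were higher and 3 lower. The cone arrestin arr3.L had 11.2, 79.3, 61.7 and 72.4 CPM and no biobot count (at least 584-fold higher in neurobots, adjusted p = 0.000132). The photoreceptor factor crx.L had 2.65, 24.6, 18.1 and 21.5 CPM and 1 count in the 4 biobot libraries together (adjusted p = 4.82e-05), and the red cone opsin opn1lw.L stood at 5.18, 34.7, 41 and 39.5 CPM in NB1 to NB4 and 0, 0.11, 0 and 0.0963 CPM in XB1 to XB4 (log2 difference 9.00 ± 0.87, adjusted p = 5.35e-05). In all 3 genes NB1 was the lowest neurobot pool by a wide margin. The lower members were the G protein subunits gnb3.L, at 259, 193, 234 and 237 CPM in NB1 to NB4 and 475, 748, 809 and 766 CPM in XB1 to XB4 (log2 difference -1.60 ± 0.22, adjusted p = 0.000318), its homeolog gnb3.S, and opn6a.S, an opsin outside the rule for naming. The other copy of this opsin, opn6a.L, was called higher. Melanin and pigment cell genes were higher in 15 of 25 and lower in 1 (5 higher and 1 lower of the 13 with a level in biobots). pmel.S, the scaffold of pigment granules, stood at 7.8, 68.5, 39.5 and 37.1 CPM in NB1 to NB4 and 1.34, 5.36, 7.32 and 1.61 CPM in XB1 to XB4 (log2 difference 3.29 ± 0.69, adjusted p = 0.00419), and rpe65.L, the retinoid isomerase of the pigment epithelium, had 0.474, 12.8, 4.89 and 4.65 CPM and no biobot count (at least 59.1-fold higher in neurobots, adjusted p = 0.00178). The lower one, rab27a.L, carries pigment granules and other secretory vesicles and stood at 21.3, 34.9, 26.2 and 27.5 CPM in NB1 to NB4 and 46, 48.5, 53.8 and 54.4 CPM in XB1 to XB4 (log2 difference -0.88 ± 0.18, adjusted p = 0.00333).

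Radial glia and glial genes were higher in 21 of 31 and lower in 0 (1 unadjusted, 0 by DESeq2); of the 14 with a level in biobots, 6 were higher and 0 lower. The glial glutamate carrier slc1a3.S stood at 45.9, 186, 146 and 133 CPM in NB1 to NB4 and 1.27, 0.439, 0.813 and 1.03 CPM in XB1 to XB4 (log2 difference 7.18 ± 0.51, adjusted p = 8.86e-06) and the radial glial lipid carrier fabp7.L at 44, 121, 84.1 and 113 CPM in NB1 to NB4 and 0.181, 0.11, 0.13 and 0.0321 CPM in XB1 to XB4 (log2 difference 9.62 ± 0.49, adjusted p = 1.95e-06). The highest member, glul.L, which makes glutamine, had 2386, 1319, 1172 and 1133 CPM in NB1 to NB4 and 1639, 964, 1268 and 1205 CPM in XB1 to XB4, with overlapping pools (log2 difference 0.24 ± 0.29, adjusted p = 0.549). Neural crest genes were less uniform, 24 higher and 3 lower of 44 (7 higher and 3 lower of the 26 with a level in biobots). The crest markers foxd3, sox10 and twist1 did not pass the filter on low counts in either copy. Of the marker snai2, the copy snai2.S was called higher, and snai2.L was not called, with overlapping pools. Of the list, pax3.L, also a dorsal neural tube factor, had 1.04, 2.2, 2.31 and 2.03 CPM and no biobot count (at least 19.7-fold higher in neurobots, adjusted p = 0.000186), while the neuregulin receptor erbb3.L stood at 15.9, 8.26, 17.5 and 19.3 CPM in NB1 to NB4 and 36.4, 28.8, 23.1 and 35.2 CPM in XB1 to XB4 (log2 difference -1.02 ± 0.26, adjusted p = 0.0138, and 0.0609 scaled by library size alone).

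Among the signalling pathways that pattern neural tissue, Hedgehog had the highest share of genes called higher. Of 28 tested Hedgehog genes 26 were higher and 0 (0 unadjusted, 0 by DESeq2) lower, with a median log2 difference of 2.21; of the 22 with a level in biobots, 20 were higher and 0 lower. Most of these genes were expressed in biobots. The groups did not overlap in 18 of the 26 called higher, against 87.9% of all genes called higher. The median was 0.45 for NB1 minus XB1 and 2.16 for the later neurobot minus the later biobot pools (log2 of CPM + 0.5). smo.L, the signal transducer (chosen, like ptch1.L, after its values were seen), stood at 15.3, 26.5, 29.5 and 29.6 CPM in NB1 to NB4 and 6.01, 4.81, 5.92 and 5.07 CPM in XB1 to XB4 (log2 difference 2.21 ± 0.23, adjusted p = 8.39e-05). gas1.L, a co-receptor, stood at 133, 110.2, 153 and 139.6 CPM in NB1 to NB4 and 36.8, 48.6, 44.9 and 32 CPM in XB1 to XB4 (log2 difference 1.73 ± 0.19, adjusted p = 9.45e-05). NB1 was the lowest neurobot pool for smo.L and not for gas1.L. The transcription factor gli3.S, which acts at the end of the pathway, stood at 27.5, 64.6, 80.5 and 66.3 CPM in NB1 to NB4 and 34.9, 25.8, 21.4 and 27.9 CPM in XB1 to XB4 (log2 difference 1.12 ± 0.30, adjusted p = 0.015), and the target and receptor ptch1.L at 0.379, 3.98, 6.58 and 5.96 CPM in NB1 to NB4 and 0.978, 1.04, 0.52 and 0.899 CPM in XB1 to XB4 (log2 difference 2.29 ± 0.67, adjusted p = 0.0234, and 0.0518 to 0.0619 without NB2, NB3, NB4, XB3 or XB4). In gli3.S and ptch1.L the pools overlapped, NB1 lying among or under the biobots.

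In the Wnt pathway 53 of 93 tested members were higher and 5 lower; of the 69 with a level in biobots, 32 were higher and 5 lower. wls.L, which escorts Wnt proteins to the surface, stood at 57.4, 69.1, 58 and 55.4 CPM in NB1 to NB4 and 26, 23, 21.8 and 17.1 CPM in XB1 to XB4 (log2 difference 1.45 ± 0.17, adjusted p = 0.000146). kremen1.S, a receptor that dampens Wnt signalling, stood at 11, 6.77, 5.85 and 6.6 CPM in NB1 to NB4 and 19.8, 31.1, 31.5 and 34.5 CPM in XB1 to XB4 (log2 difference -1.95 ± 0.25, adjusted p = 0.000256). dact4.L, a Dapper-family regulator of Wnt signalling, stood at 14, 17.9, 25.8 and 20.2 CPM in NB1 to NB4 and 9.06, 7.66, 7.06 and 5.36 CPM in XB1 to XB4 (log2 difference 1.42 ± 0.24, adjusted p = 0.00107). FGF ligands, receptors and feedback genes were higher in 36 of 61 and lower in 0 (0 unadjusted, 0 by DESeq2) (15 higher and 0 lower of the 38 with a level in biobots), with fgf8.L, a ligand of brain organizers, at 1.48, 7.64, 9.6 and 5.62 CPM and no biobot count (at least 63.3-fold higher in neurobots, adjusted p = 0.000301). BMP, activin and TGF-beta genes were higher in 40 and lower in 2 of 91 (18 higher and 2 lower of the 64 with a level in biobots). The lower ones, id2.L and id2.S, are homeologs of a BMP target. The first stood at 87.8, 34.6, 41.9 and 41.1 CPM in NB1 to NB4 and 97.2, 112, 122 and 84.4 CPM in XB1 to XB4 (log2 difference -1.01 ± 0.28, adjusted p = 0.0198, and 0.0502 to 0.0569 without NB2, NB3, NB4 or XB3), with overlapping pools, NB1 being inside the biobot range. Another BMP target of the same family, id3.S, was higher at 273, 256, 177 and 190.4 CPM in NB1 to NB4 and 139.8, 113, 156 and 107 CPM in XB1 to XB4 (log2 difference 0.80 ± 0.21, adjusted p = 0.0132, and 0.0529 to 0.0555 without XB2 or XB4).

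Notch pathway genes were higher in 22 (34 without NB1) and lower in 5 (9 without NB1) of 63; of the 51 with a level in biobots, 11 were higher and 5 lower. hes5.2.L, a Notch target of neural progenitors, had 8.65, 14.3, 11.1 and 10.6 CPM and no biobot count (at least 116-fold higher in neurobots, adjusted p = 1.1e-05). The ligand dll4.L stood at 2.78, 2.2, 2.46 and 2.48 CPM in NB1 to NB4 and 3.95, 6.21, 6.05 and 9.89 CPM in XB1 to XB4 (log2 difference -1.39 ± 0.30, adjusted p = 0.00467). Retinoid genes were higher in 17 and lower in 5 of 28 (7 higher and 5 lower of the 18 with a level in biobots). cyp26c1.L, which breaks down retinoic acid in the head, had 3.22, 14.3, 11.5 and 10.6 CPM and no biobot count (at least 103-fold higher in neurobots, adjusted p = 0.000114), and aldh1a1.L, a retinaldehyde dehydrogenase, stood at 111, 140.5, 93.9 and 97.7 CPM in NB1 to NB4 and 150.4, 194, 222 and 245 CPM in XB1 to XB4 (log2 difference -0.87 ± 0.21, adjusted p = 0.00835). Growth and trophic factors and their receptors were higher in 38 and lower in 11 (7 scaled by library size alone) of 73; of the 42 with a level in biobots, 11 were higher and 11 lower. They included mdk.L, midkine, higher at 433, 278, 274 and 277 CPM in NB1 to NB4 and 138, 97.3, 100.2 and 83.8 CPM in XB1 to XB4 (log2 difference 1.59 ± 0.23, adjusted p = 0.000452), and igf3.L, an insulin-like factor, lower at 287, 125, 94.1 and 115 CPM in NB1 to NB4 and 629, 365, 501 and 495 CPM in XB1 to XB4 (log2 difference -1.68 ± 0.35, adjusted p = 0.00403). Immediate early and activity-regulated genes were 12 higher and 6 (10 without NB1, 3 without NB2, NB3, NB4 or XB2) lower of 50 (4 higher and 6 lower of the 38 with a level in biobots).

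**Figure D3:**
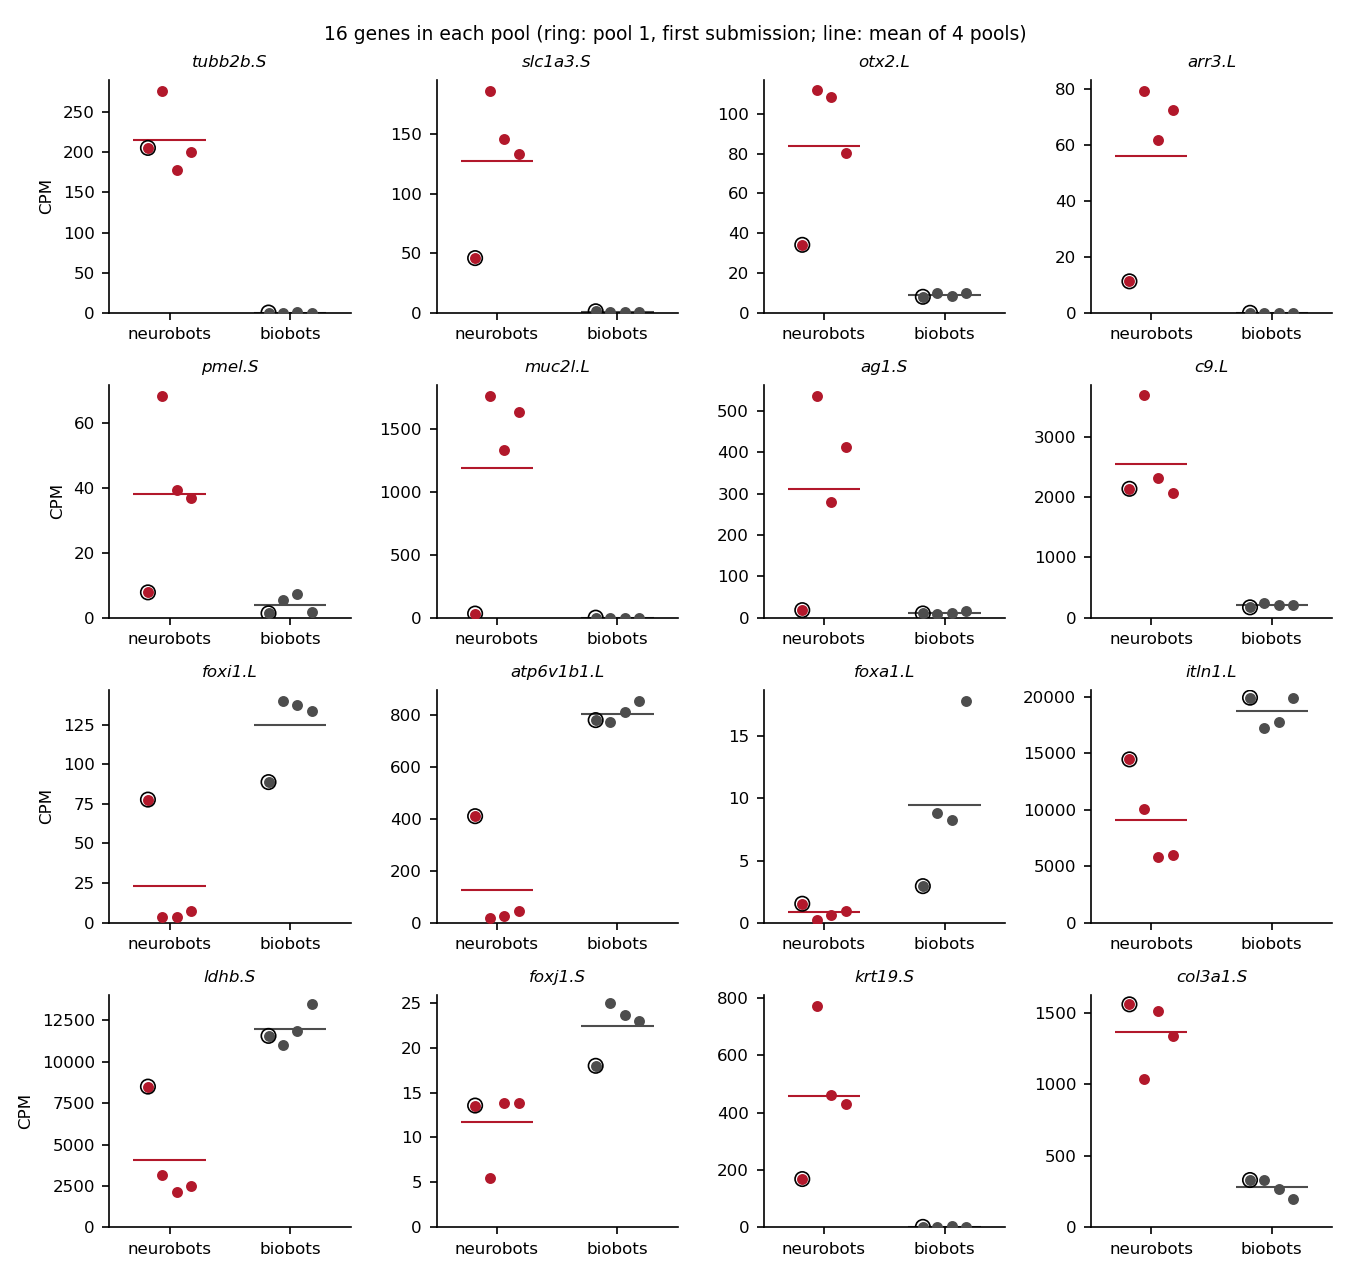
Level (CPM, linear axes from 0) of 16 genes in the 4 neurobot pools (red) and the 4 biobot pools (grey), with the mean of each group as a line and pool 1 of each group ringed. In arr3.L, pmel.S, muc2l.L and ag1.S the ringed neurobot pool lies near the biobots, in foxi1.L, atp6v1b1.L and ldhb.S it lies between the groups, and in tubb2b.S, c9.L and col3a1.S it lies among the other neurobots.

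Among the lists with at least 20 tested genes, ionocyte regulators and proton pump subunits had the highest shares called lower. Of 22 tested ionocyte regulators 14 were lower and 3 higher, with a median log2 difference of -1.42; of the 20 with a level in biobots, 2 were higher and 13 lower. Their summed level was 437, 159, 209.5 and 212 CPM in NB1 to NB4 and 620.2 to 786 CPM in biobots. foxi1.S, the master regulator, stood at 23.2, 1.24, 1.64 and 3.76 CPM in NB1 to NB4 and 38.4, 50.4, 51.7 and 44.1 CPM in XB1 to XB4 (log2 difference -2.63 ± 0.78, adjusted p = 0.0259, and 0.0561 to 0.0838 without NB2, NB3 or NB4, and 0.102 with no filter on low counts). Its homeolog foxi1.L (chromosome 3L, 39080723 to 39082941 in assembly version 10.1) had 77.8, 3.81, 3.69 and 7.52 CPM in NB1 to NB4 and 88.8, 140.4, 137 and 134 CPM in XB1 to XB4 and did not pass (log2 difference -2.43 ± 0.89, adjusted p = 0.0581). NB1 was near XB1 in this gene, and without NB1 the test gave a log2 difference of -4.66 (adjusted p = 3.97e-06). esrra.L, a nuclear receptor of energy metabolism, stood at 101, 29.9, 45.6 and 48.8 CPM in NB1 to NB4 and 153, 169.7, 169 and 174 CPM in XB1 to XB4 (log2 difference -1.56 ± 0.32, adjusted p = 0.00366). The 3 regulators called higher were dll1.L and jag1.L, Notch ligands used in many tissues, and foxi2.S, at 15.8, 6.15, 6.85 and 5.21 CPM in NB1 to NB4 and 0.942, 0.302, 0.163 and 0.128 CPM in XB1 to XB4 (log2 difference 4.48 ± 0.63, adjusted p = 0.000406).

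The proton pump showed the same pattern over the pools. Of 42 tested subunits of the vacuolar ATPase 27 (17 without NB2, XB2 or XB4, 16 without NB3, 15 without NB4) were lower and 3 higher; of the 39 with a level in biobots, 0 were higher and 27 lower. Summed over the list the level was 5118, 2049, 1796 and 1979 CPM in NB1 to NB4 against 7084, 8390.1, 8756 and 8625 CPM in XB1 to XB4. Among the lower ones were the forms used by acid-secreting cells. atp6v1b1.L (chromosome 1L, 12189460 to 12228096) stood at 410.4, 17.8, 25.5 and 43.8 CPM in NB1 to NB4 and 781, 774, 811 and 856 CPM in XB1 to XB4 (log2 difference -2.69 ± 0.88, adjusted p = 0.0378, and 0.0605 to 0.106 without NB2, NB3, NB4, XB1, XB2, XB3 or XB4, and 0.127 with no filter on low counts), and without NB1 the test gave a log2 difference of -4.81 (adjusted p = 3.82e-06). atp6v1c2.L stood at 99.4, 7.81, 9.28 and 17.4 CPM in NB1 to NB4 and 213, 284, 325 and 313 CPM in XB1 to XB4 (log2 difference -3.08 ± 0.74, adjusted p = 0.00935). Every neurobot pool lay below every biobot pool in both genes, with NB1 between the other neurobots and the biobots. The median over the tested subunits was -0.15 for NB1 minus XB1 and -1.61 for the later neurobot minus the later biobot pools (log2 of CPM + 0.5). The subunits called higher were atp6v0e2.S, atp6v1g2.L, a subunit form of neurons, with 4.04, 4.85, 4.18 and 4.34 CPM and 1 count in the 4 biobot libraries together (adjusted p = 9.39e-06), and its homeolog atp6v1g2.S. The anion exchanger slc4a1.L, which returns bicarbonate in such cells, stood at 26.6, 1.33, 5.82 and 7.02 CPM in NB1 to NB4 and 57.5, 103, 79.1 and 59.2 CPM in XB1 to XB4 (log2 difference -2.87 ± 0.69, adjusted p = 0.00887), and among all acid-base, sodium and chloride transport genes 27 (43 without NB1, 17 without NB4) were lower and 20 higher of 102 (5 higher and 27 lower of the 83 with a level in biobots).

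**Figure D4:**
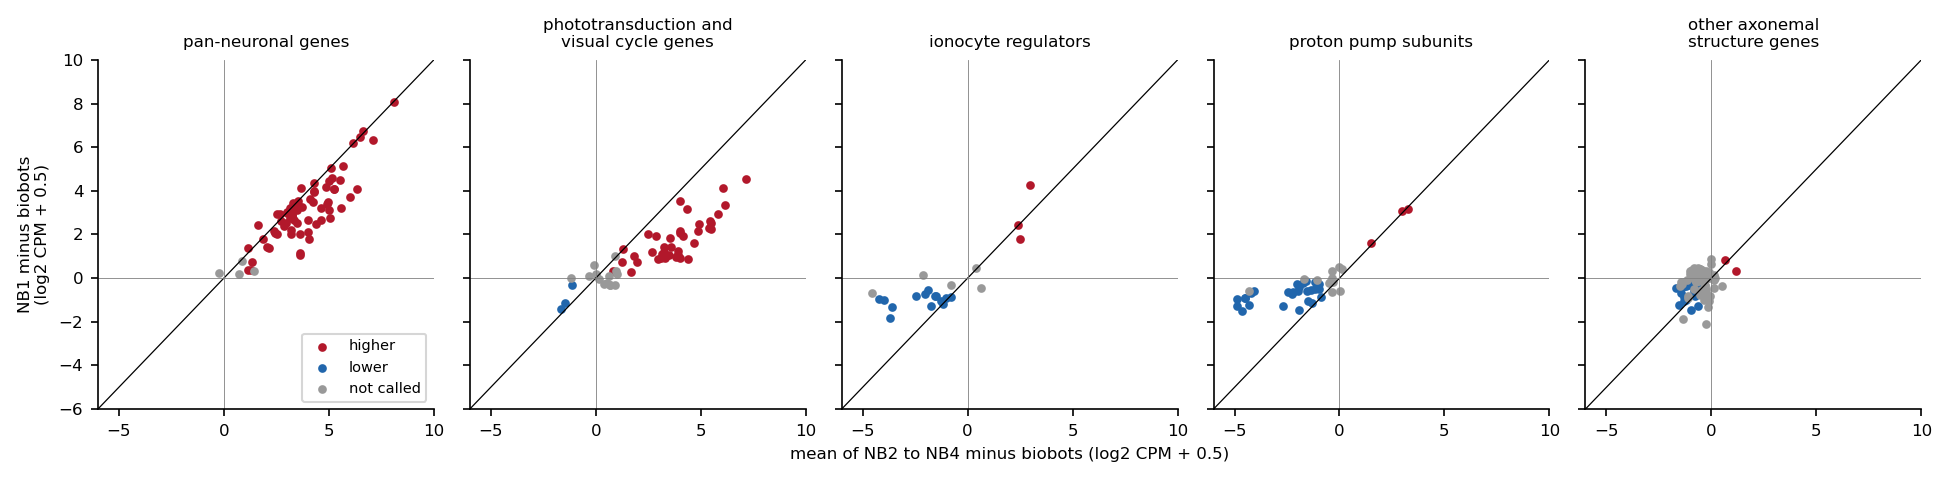
Each dot is a tested member of 1 of 5 gene lists, with the mean of NB2 to NB4 minus the mean of the biobot pools on the horizontal axis and NB1 minus the same biobot mean on the vertical axis (log2 of CPM + 0.5), coloured by call; the diagonal marks equal differences. The medians on the horizontal and vertical axes are 3.58 and 2.94 for pan-neuronal genes, 3.21 and 1.01 for visual genes, -1.54 and -0.81 for ionocyte regulators, -1.52 and -0.55 for proton pump subunits and -0.58 and -0.06 for the axonemal list, and 59 of 72, 46 of 58, 15 of 22, 35 of 42 and 42 of 111 of these genes lie between the diagonal and the line at 0. The axonemal list also holds some genes that are not axonemal.

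Multiciliated cell genes were mostly not called, but over all tested genes only 31.8% were called. The dynein arm and other axonemal genes that were called were nearly all lower. The shares of these lists called lower were 16.4% and 19.8%, against 12.3% of all tested genes. The shares called higher were 0 and 1.8%, against 19.5%. Of 40 tested regulators 6 (3 without XB2 or XB3, 2 without XB4) were lower and 5 (9 without XB1) higher (2 higher and 6 lower of the 35 with a level in biobots). foxj1.S, which directs motile cilia, stood at 13.5, 5.47, 13.9 and 13.8 CPM in NB1 to NB4 and 18, 24.9, 23.6 and 22.9 CPM in XB1 to XB4 (log2 difference -0.93 ± 0.28, adjusted p = 0.0266, and 0.0547 to 0.0637 without XB2, XB3 or XB4, and 0.0949 scaled by library size alone). Its homeolog foxj1.L was not called (log2 difference -0.74), with overlapping pools. Axonemal dynein arm genes, the motors of the cilium, were lower in 10 (20 without NB1, 4 without NB2 or XB1, 3 without XB2, 6 without XB4, 3 scaled by library size alone) and higher in 0 (0 unadjusted, 0 by DESeq2) of 61, with a median log2 difference of -0.49. Other axonemal structure genes were lower in 22 (63 without NB1, 11 without NB3, 13 without NB4 or XB2) and higher in 2 of 111 (1 higher and 22 lower of the 109 with a level in biobots), with a median of -0.41. This list took in members of the tex, spata and efcab families by symbol, and not all of them are axonemal. Its counts and medians are therefore not those of axonemal genes alone. Of the members called, spag6.L, of the central pair, stood at 57, 28.9, 39 and 37.9 CPM in NB1 to NB4 and 95.6, 74.4, 60.4 and 61.7 CPM in XB1 to XB4 (log2 difference -0.84 ± 0.23, adjusted p = 0.0183), and stoml3.L, a stomatin-family membrane protein, at 37.1, 31.5, 27.4 and 28.6 CPM in NB1 to NB4 and 70.4, 87.6, 94 and 98.1 CPM in XB1 to XB4 (log2 difference -1.49 ± 0.17, adjusted p = 0.000126). The homeolog spag6.S was not called (log2 difference -0.49), with overlapping pools. dnah9.S, an outer arm heavy chain, had 61.6, 6.88, 72.6 and 89.4 CPM in NB1 to NB4 and 131, 105, 79 and 104 CPM in XB1 to XB4 (log2 difference -0.86 ± 0.55, adjusted p = 0.26), with overlapping pools, NB2 being the lowest. Intraflagellar transport and transition zone genes, which neurons share, were called higher in 4 and lower in 2 of 68. The regulators called higher were tp73.L, e2f4.L, foxn4.S, mcidas.S and rfx4.L, a ciliary factor of the neural tube that had 2.08, 6.21, 5.94 and 4.82 CPM and no biobot count (at least 49.5-fold higher in neurobots, adjusted p = 0.000109).

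Secretory genes went both ways. Among mucins and goblet cell genes 13 (22 without NB1) were higher and 11 (7 without NB2, NB4 or XB2, 6 without XB4) lower of 64; of the 44 with a level in biobots, 3 were higher and 10 lower. A pair of mucin genes with almost no read in biobots was abundant in NB2 to NB4. muc2l.L (chromosome 4L, 19705852 to 19741623) stood at 32.7, 1766, 1338 and 1634 CPM in NB1 to NB4 and 0.109, 0.247, 0.0975 and 0.193 CPM in XB1 to XB4 (log2 difference 12.79 ± 1.30, adjusted p = 6.68e-05), and a gene annotated as mucin-5AC (LOC108715183) had 30.5, 786, 674 and 785 CPM and 2 counts in the 4 biobot libraries together (adjusted p = 3.94e-05). NB1 was far below the other neurobot pools in both, yet above every biobot pool. The goblet cell lectin itln1.L was lower, at 14474, 10049, 5845 and 5975 CPM in NB1 to NB4 and 19947, 17291, 17777 and 19897 CPM in XB1 to XB4 (log2 difference -1.04 ± 0.32, adjusted p = 0.0295, and 0.0551 to 0.0762 without NB2, NB3, NB4, XB1, XB2, XB3 or XB4), and so was otogl2.L, an otogelin-like gene, at 536, 237, 543 and 650.0 CPM in NB1 to NB4 and 1224, 1099, 654 and 1312 CPM in XB1 to XB4 (log2 difference -1.12 ± 0.33, adjusted p = 0.023, and 0.0635 without XB4, and 0.0589 scaled by library size alone). Small secretory cell genes were lower in 7 and higher in 12 of 23 (3 higher and 7 lower of the 13 with a level in biobots). The factor that makes these cells, foxa1.L, stood at 1.52, 0.197, 0.615 and 0.919 CPM in NB1 to NB4 and 2.93, 8.84, 8.26 and 17.9 CPM in XB1 to XB4 (log2 difference -3.55 ± 0.64, adjusted p = 0.00172). chga.L, chromogranin A, a granule protein of neurons and endocrine cells, was higher at 20.3, 148, 80 and 81.9 CPM in NB1 to NB4 and 2.72, 0.11, 1.24 and 0.128 CPM in XB1 to XB4 (log2 difference 6.34 ± 0.94, adjusted p = 0.000539).

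Cement gland genes, markers of the mucus-secreting organ at the front of the larval head, were higher in 7 of 11 and lower in 1 (6 higher and 1 lower of the 10 with a level in biobots), the lower one being itln1.L, which goblet cells also make. ag1.S, a defining cement gland gene, stood at 18.2, 537, 281 and 412 CPM in NB1 to NB4 and 10.1, 8.46, 12.1 and 16.8 CPM in XB1 to XB4 (log2 difference 4.72 ± 0.79, adjusted p = 0.00114). Again NB1 stood near the biobot pools and NB2 to NB4 far above them.

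Keratins were higher in 7 and lower in 3 (10 without NB1) of 30 tested (5 higher and 3 lower of the 23 with a level in biobots). krt19.S stood at 168, 772, 461 and 429 CPM in NB1 to NB4 and 1.88, 2.55, 4.06 and 3.11 CPM in XB1 to XB4 (log2 difference 7.30 ± 0.52, adjusted p = 8.63e-06), and its homeolog krt19.L, already expressed in biobots, at 577, 482, 369 and 430 CPM in NB1 to NB4 and 179.5, 144, 216 and 115 CPM in XB1 to XB4 (log2 difference 1.50 ± 0.24, adjusted p = 0.000777). The most abundant keratin, krt7.S, had 19340, 12968, 7758 and 9119.5 CPM in NB1 to NB4 and 16632, 13521, 14845 and 14630 CPM in XB1 to XB4, with overlapping pools (log2 difference -0.28 ± 0.30, adjusted p = 0.524). Of the epidermal transcription factors 14 were higher and 8 (19 without NB1) lower of 56 (9 higher and 8 lower of the 50 with a level in biobots). tp63.L, the factor of basal epidermis, was higher at 105, 124, 127 and 117 CPM in NB1 to NB4 and 61.3, 43.6, 38.7 and 39.2 CPM in XB1 to XB4 (log2 difference 1.37 ± 0.19, adjusted p = 0.000322), and grhl3.L, of the outer layer, had 71.7, 86.7, 73.3 and 67.4 CPM in NB1 to NB4 and 78, 82.8, 92.1 and 84.8 CPM in XB1 to XB4, with overlapping pools (log2 difference -0.17 ± 0.15, adjusted p = 0.4). The homeolog grhl3.S was called lower, with a log2 difference of -0.60 and no overlap of the pools. Genes of desmosomes, hemidesmosomes and the cornified layer were lower in 19 and higher in 11 (7 without XB2 or XB4) of 48; of the 42 with a level in biobots, 10 were higher and 19 lower. Among the genes named, ppl.L, periplakin, of surface layers, stood at 322, 202, 256 and 272 CPM in NB1 to NB4 and 622, 482, 413 and 492 CPM in XB1 to XB4 (log2 difference -0.93 ± 0.21, adjusted p = 0.00593), and col17a1.L, of the basal hemidesmosome, at 11.3, 26.8, 42.1 and 35.1 CPM in NB1 to NB4 and 0.797, 2.66, 3.12 and 0.385 CPM in XB1 to XB4 (log2 difference 4.04 ± 0.62, adjusted p = 0.000679).

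Junction genes were called in both directions. Claudins and tight junction genes were higher in 19 and lower in 15 of 58 (8 higher and 15 lower of the 46 with a level in biobots). cldn4.S, an epithelial claudin, stood at 521, 298, 287 and 308 CPM in NB1 to NB4 and 877, 736, 719 and 771 CPM in XB1 to XB4 (log2 difference -1.13 ± 0.23, adjusted p = 0.00366). cldn5.L had 14.1, 151, 141 and 112 CPM and 1 count in the 4 biobot libraries together (adjusted p = 2.21e-05); in mammals this claudin seals the vessels of the brain. Connexins were higher in 7 (12 without NB1 or XB1) and lower in 8 (5 without NB3, NB4 or XB4) of 21 (3 higher and 8 lower of the 17 with a level in biobots). gjb2.L stood at 45.7, 14.3, 25.7 and 23 CPM in NB1 to NB4 and 69.5, 86, 86.1 and 75 CPM in XB1 to XB4 (log2 difference -1.54 ± 0.30, adjusted p = 0.00283), and gjc1.L at 309, 229.6, 262 and 272 CPM in NB1 to NB4 and 168, 116, 140.5 and 96 CPM in XB1 to XB4 (log2 difference 1.05 ± 0.21, adjusted p = 0.00295). Both are channel subunits of gap junctions.

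**Figure D5:**
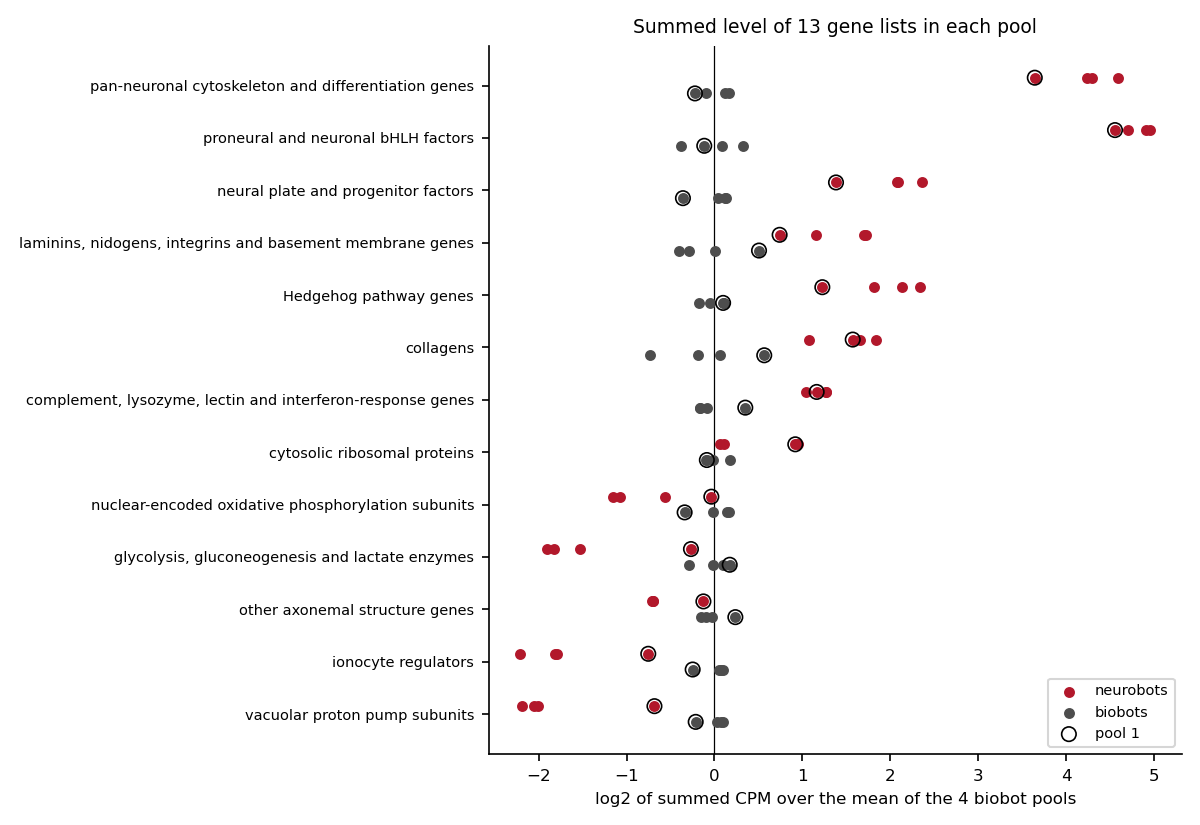
Summed level of 13 gene lists in each pool, as log2 of the summed CPM over the mean of the biobot pools (red neurobots, grey biobots, pool 1 ringed). Neuronal, progenitor, Hedgehog and immune sums lie right of all biobot pools, the immune ones mainly through c3.L and c9.L, ionocyte and proton pump sums lie left of them, and ribosomal protein sums of NB1 and NB2 stand apart from NB3 and NB4.

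Genes of the extracellular matrix were often higher in neurobots and almost never lower. Of 59 tested collagens 33 were higher and 0 (2 unadjusted, 1 by DESeq2) lower; of the 52 with a level in biobots, 28 were higher and 0 lower. col3a1.S, a fibrillar collagen, stood at 1557, 1036, 1514 and 1338 CPM in NB1 to NB4 and 331, 332, 268 and 199 CPM in XB1 to XB4 (log2 difference 2.27 ± 0.24, adjusted p = 8.03e-05), and col1a1.L, the main one of bone and skin, at 163, 76.8, 246 and 229 CPM in NB1 to NB4 and 5.83, 15.7, 16.9 and 10.7 CPM in XB1 to XB4 (log2 difference 3.86 ± 0.43, adjusted p = 0.000112). Laminins, integrins and other basement membrane genes were higher in 33 and lower in 1 of 54; of the 42 with a level in biobots, 27 were higher and 1 lower. lama5.L, a laminin chain, stood at 52.2, 101, 206 and 187 CPM in NB1 to NB4 and 37.4, 22.2, 17.9 and 14.3 CPM in XB1 to XB4 (log2 difference 2.58 ± 0.44, adjusted p = 0.0013). Other matrix glycoproteins were higher in 36 and lower in 0 (2 unadjusted, 1 by DESeq2) of 67 (23 higher and 0 lower of the 48 with a level in biobots), and matrix proteases in 34 and 2 of 69 (18 higher and 2 lower of the 47 with a level in biobots). sparc.S, which binds collagen, stood at 2209, 1348, 1005 and 1081 CPM in NB1 to NB4 and 833, 542, 529 and 417 CPM in XB1 to XB4 (log2 difference 1.28 ± 0.31, adjusted p = 0.0091). In all 4 genes NB1 lay above every biobot pool. Of the genes called higher, the groups did not overlap in 29 of 33 collagens, 21 of 33 basement membrane genes, 34 of 36 other glycoproteins and 26 of 34 proteases. Over all genes called higher this share was 87.9%. The medians for NB1 minus XB1 were 0.475, 0.19, 0.71 and 0.33 in this order (log2 of CPM + 0.5). For the later neurobot minus the later biobot pools they were 1.25, 1.46, 1.06 and 1.09.

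Most tested adhesion genes were called higher as well, but not most of those with a level in biobots. Cadherins and protocadherins were higher in 50 and lower in 6 of 71; of the 36 with a level in biobots, 17 were higher and 6 lower. cdh6.S had 9.13, 18.8, 18.1 and 19 CPM and no biobot count (at least 169-fold higher in neurobots, adjusted p = 1.74e-05). A gene described as cadherin-like protein 26 (LOC108700933) was lower, at 68, 10.8, 18.8 and 16.6 CPM in NB1 to NB4 and 149, 159.6, 219.8 and 363 CPM in XB1 to XB4 (log2 difference -2.97 ± 0.56, adjusted p = 0.00242), and the epithelial cadherin cdh1.S had 1323, 610.2, 851 and 819.7 CPM in NB1 to NB4 and 916, 505, 491 and 489.9 CPM in XB1 to XB4, with overlapping pools (log2 difference 0.59 ± 0.30, adjusted p = 0.156, and 0.0436 without XB1, and 0.023 with a submission term, and 0.0308 without NB1 and XB1). Immunoglobulin-family adhesion genes were higher in 30 and lower in 2 of 49 (7 higher and 2 lower of the 23 with a level in biobots), among them cadm3.L, a neuronal one, with 5.75, 9.22, 11.5 and 12 CPM and no biobot count (adjusted p = 2.68e-05).

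Genes of energy metabolism were called lower more often than higher. Of 88 tested genes of glycolysis, gluconeogenesis and lactate 29 (17 without NB2, 18 without NB4 or XB4) were lower and 11 higher; of the 81 with a level in biobots, 8 were higher and 29 lower. ldhb.S, which turns lactate to pyruvate, stood at 8502, 3142, 2111 and 2508 CPM in NB1 to NB4 and 11565, 10995, 11836 and 13488 CPM in XB1 to XB4 (log2 difference -1.56 ± 0.42, adjusted p = 0.0164, and 0.0565 without NB2). fbp1.L, of gluconeogenesis, stood at 4956, 2089, 1391 and 1676 CPM in NB1 to NB4 and 6874, 4569, 5973 and 5938 CPM in XB1 to XB4 (log2 difference -1.21 ± 0.39, adjusted p = 0.035, and 0.0661 to 0.0984 without NB2, NB3, NB4, XB1, XB3 or XB4). The pools overlapped for fbp1.L, through NB1. Oxidative phosphorylation subunits were lower in 22 (89 without NB1, 12 without NB2, 10 without NB3 or XB3, 9 without NB4 or XB4, 11 without XB2) and higher in 2 of 132 (1 higher and 22 lower of the 131 with a level in biobots). NB1 moved this count most, and the median over the subunits was 0.49 for NB1 minus XB1 and -0.89 for the later pools, opposite in sign. The share of subunits called lower, 16.7%, was near that of all tested genes, 12.3%, and of those with a level in biobots, 14.3%. The share called higher was 1.52%, against 19.5% of all tested genes. atp5f1a.L, of the ATP synthase, stood at 809, 454, 391 and 398 CPM in NB1 to NB4 and 846, 1126, 1179 and 1234 CPM in XB1 to XB4 (log2 difference -1.09 ± 0.27, adjusted p = 0.0107). Of the 12 tested genes encoded in the mitochondrial genome 0 (0 unadjusted, 0 by DESeq2) were called higher by edgeR and 0 (1 unadjusted, 0 by DESeq2) lower.

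Iron storage genes were lower in 8 and higher in 1 of 23 (0 higher and 8 lower of the 22 with a level in biobots). fth1.1.S, ferritin heavy chain, stood at 3669, 2146, 1349.8 and 1468 CPM in NB1 to NB4 and 6052, 4772, 5908 and 5083 CPM in XB1 to XB4 (log2 difference -1.34 ± 0.32, adjusted p = 0.0097), and slc40a1.S, the iron exporter, at 94.7, 42.7, 62.3 and 67.4 CPM in NB1 to NB4 and 207, 271, 264 and 274 CPM in XB1 to XB4 (log2 difference -1.93 ± 0.24, adjusted p = 0.00021). Glutathione and other detoxifying transferases were lower in 24 (45 without NB1, 15 without NB2 or XB4, 14 without NB3 or NB4) and higher in 15 of 100 (11 higher and 24 lower of the 93 with a level in biobots). gstp1.L, a glutathione transferase, stood at 347, 241, 187 and 155 CPM in NB1 to NB4 and 1275, 1229.6, 890.1 and 869.7 CPM in XB1 to XB4 (log2 difference -2.20 ± 0.28, adjusted p = 0.000246). Apolipoprotein and lipid transport genes ran the other way, 26 higher and 6 lower of 65 (15 higher and 6 lower of the 52 with a level in biobots), with apoc1.L, a lipoprotein component, at 563, 1958, 927 and 785 CPM in NB1 to NB4 and 38.8, 78.4, 109 and 93.8 CPM in XB1 to XB4 (log2 difference 3.73 ± 0.45, adjusted p = 0.000173).

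Immune genes, with complement, lysozymes, lectins and interferon-response genes, were called about as often in either direction. Of 180 tested, 36 were higher and 34 (22 without XB4, 22 scaled by library size alone) lower (23 higher and 34 lower of the 155 with a level in biobots). The summed level was 11143 to 13123 CPM in neurobots against 4832 to 6928 CPM in biobots. Without c3.L and c9.L it was 3754 to 5253 CPM and 3378 to 4139 CPM, so these genes made most of that difference. c3.L, the central complement component, stood at 5974, 4155, 6926 and 5317 CPM in NB1 to NB4 and 2618, 1203, 1142 and 1058 CPM in XB1 to XB4 (log2 difference 1.90 ± 0.34, adjusted p = 0.00156), and c9.L, which forms the membrane pore, at 2135, 3682, 2314 and 2071 CPM in NB1 to NB4 and 171, 251, 206 and 218 CPM in XB1 to XB4 (log2 difference 3.59 ± 0.27, adjusted p = 1.21e-05). A gene annotated as interleukin-11 (LOC108696684) had 3.82, 108, 60.5 and 57 CPM and 4 counts in the 4 biobot libraries together (adjusted p = 0.000114). Among the lower ones fucolectin.S, a lectin, stood at 813, 451, 233 and 209 CPM in NB1 to NB4 and 1351, 894, 1046 and 1334 CPM in XB1 to XB4 (log2 difference -1.44 ± 0.40, adjusted p = 0.02, and 0.052 to 0.0529 without NB2 or XB4). Annexins and S100 proteins were higher in 15 and lower in 4 of 34 (14 higher and 4 lower of the 33 with a level in biobots), anxa2.L standing at 602, 626, 363 and 363 CPM in NB1 to NB4 and 143, 57.1, 74.4 and 40.9 CPM in XB1 to XB4 (log2 difference 2.63 ± 0.39, adjusted p = 0.000537).

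Ribosomal protein genes differed between pools of the same group. Their summed level was 129560, 132800, 71377 and 73951 CPM in NB1 to NB4 and 64525, 64350, 77249 and 67951 CPM in XB1 to XB4, so NB1 and NB2 stood above all biobots and NB3 and NB4 inside their range. The count was 26 (9 without NB1, 1 without NB2 or XB4, 76 without NB3, 58 without NB4, 3 without XB1 or XB3, 0 without XB2, 116 scaled by library size alone) higher and 0 (0 unadjusted, 0 by DESeq2) lower of 138, and DESeq2 called 62 higher. Cell cycle and replication genes were higher in 17 (11 without XB2, 9 without XB4, 26 scaled by library size alone) and lower in 4 (17 without NB1, 8 without XB1) of 170 (16 higher and 4 lower of the 165 with a level in biobots), both near or under the background, with mcm7.L, a replication helicase subunit, at 87.7, 98.1, 91.5 and 75.1 CPM in NB1 to NB4 and 36.8, 42.9, 45.8 and 36.4 CPM in XB1 to XB4 (log2 difference 1.12 ± 0.16, adjusted p = 0.000382). Heat shock and chaperonin genes were higher in 24 and lower in 15 (9 without NB3, 8 without NB4, 6 without XB2 or XB4, 7 without XB3, 8 scaled by library size alone) of 134 (18 higher and 15 lower of the 128 with a level in biobots), proteasome subunits in 2 (11 scaled by library size alone) and 2 of 80, and lysosomal genes in 6 and 12 (23 without NB1, 7 without NB3, NB4 or XB2, 6 without XB4) of 76. Apoptosis and p53 response genes were lower in 14 and higher in 4 of 62.

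Cytoskeletal genes outside the neuronal list were less one-sided. Tubulins were higher in 11 and lower in 1 (10 without NB1) of 32 (7 higher and 1 lower of the 28 with a level in biobots), kinesins in 8 and 8 (4 without NB2, XB1 or XB4, 5 without NB3, NB4 or XB2, 2 scaled by library size alone) of 44 (5 higher and 8 lower of the 41 with a level in biobots), and actin and its regulators in 25 and 13 (8 scaled by library size alone) of 86 (16 higher and 13 lower of the 75 with a level in biobots). fscn1.L, fascin, which bundles actin in growth cones and other protrusions, had 16.6, 39.1, 39.9 and 32.1 CPM in NB1 to NB4 and 0.109, 0, 0.0975 and 0 CPM in XB1 to XB4 (6 counts in the 4 biobot libraries together, adjusted p = 4.83e-06). flnb.L, filamin B, which links actin filaments, stood at 39.8, 22.8, 54 and 57.6 CPM in NB1 to NB4 and 164, 142, 108 and 167 CPM in XB1 to XB4 (log2 difference -1.74 ± 0.28, adjusted p = 0.000947), and actn4.L, an actinin, at 224, 234, 255 and 258 CPM in NB1 to NB4 and 501, 454, 446 and 486 CPM in XB1 to XB4 (log2 difference -0.96 ± 0.16, adjusted p = 0.0011). kif5c.S, a kinesin of axonal transport, had 1.14, 4.37, 7.08 and 7.16 CPM and 2 counts in the 4 biobot libraries together (adjusted p = 9.76e-05). The mitotic kinesin kif20a.L was lower at 42.3, 24.9, 25.3 and 28 CPM in NB1 to NB4 and 44.9, 51.6, 65.1 and 70.3 CPM in XB1 to XB4 (log2 difference -0.94 ± 0.22, adjusted p = 0.00802). NB1 was the lowest neurobot pool for kif5c.S and fscn1.L, and the nearest to biobots for kif20a.L.

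Serine proteases and their inhibitors were higher in 17 and lower in 16 of 68 (13 higher and 16 lower of the 60 with a level in biobots). prss8.S, a membrane-bound epithelial protease, stood at 103, 37.1, 42.8 and 40.5 CPM in NB1 to NB4 and 163, 162, 145 and 175 CPM in XB1 to XB4 (log2 difference -1.53 ± 0.31, adjusted p = 0.00382), and serpine2.L, a secreted protease inhibitor, at 42.7, 68.5, 54.8 and 44.6 CPM in NB1 to NB4 and 18.9, 6.45, 6.99 and 4.94 CPM in XB1 to XB4 (log2 difference 2.50 ± 0.40, adjusted p = 0.000828). Cytochrome P450 genes were lower in 17 and higher in 11 of 61; of the 47 with a level in biobots, 3 were higher and 17 lower. cyp2e1.L, a xenobiotic-metabolising one, stood at 145, 184, 152 and 151 CPM in NB1 to NB4 and 275, 302, 350.4 and 319.8 CPM in XB1 to XB4 (log2 difference -0.98 ± 0.17, adjusted p = 0.00124). Stress genes of the endoplasmic reticulum divided into 6 (3 without XB2 or XB4) higher and 6 lower of 54. asns.L, asparagine synthetase, stood at 14.8, 62.9, 34.2 and 40.7 CPM in NB1 to NB4 and 0.688, 3.96, 1.82 and 4.94 CPM in XB1 to XB4 (log2 difference 3.73 ± 0.59, adjusted p = 0.000773), and sdf2l1.L, a chaperone partner of the reticulum, at 51.9, 51.1, 41.8 and 37.5 CPM in NB1 to NB4 and 81.9, 99, 92.5 and 110.0 CPM in XB1 to XB4 (log2 difference -1.07 ± 0.17, adjusted p = 0.000807). Histone genes were higher in 2 and lower in 3 (8 without NB1) of 32, and the variant macroh2a2.S stood at 43.3, 71.3, 42.2 and 48.5 CPM in NB1 to NB4 and 16.2, 7.17, 15.2 and 9.76 CPM in XB1 to XB4 (log2 difference 2.09 ± 0.29, adjusted p = 0.000346). Genes of mitochondrial ribosomal proteins were higher in 0 (0 unadjusted, 0 by DESeq2) and lower in 3 (26 without NB1) of 94.

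Protein families were also taken from the Pfam domain names of the deposited annotation, for the 194 families with at least 25 tested genes. These were surveyed with the values in view. The highest share of genes called higher was in the Wnt ligands, 19 of 25 higher and 1 lower. Next came laminin G domains (28 of 37, 0 lower), Kazal-type inhibitors (22 of 32, 4 lower), sialyltransferases (17 of 25, 2 lower) and thrombospondin type 1 repeats (39 of 58, 1 lower). Over the members with a level in biobots the higher counts were 9 of 13, 13 of 20, 6 of 14, 10 of 18 and 23 of 37 in this order. All of these are secreted or membrane proteins or enzymes that modify them. The highest share called lower was in immunoglobulin C1-set domains (16 of 37 lower, 2 higher), AMP-binding enzymes, which activate fatty acids (12 of 34, 4 higher), calpain proteases (9 of 27, 3 higher), nuclear hormone receptors (20 of 61 with the ligand-binding domain, 11 higher), galactosyltransferases (8 of 25, 5 higher) and mitochondrial carriers (20 of 63, 9 higher). capn8.2.L, a calpain, stood at 719, 320.0, 329 and 338 CPM in NB1 to NB4 and 1941, 1223, 1363 and 1432 CPM in XB1 to XB4 (log2 difference -1.80 ± 0.31, adjusted p = 0.00125).

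Few genes of other lineages reached the level for testing. Skeletal and cardiac muscle genes had 23 tested of 91, with 3 (9 without NB1 or XB1) higher and 0 (1 unadjusted, 3 by DESeq2) lower (0 higher and 0 lower of the 13 with a level in biobots), and notochord and organizer genes 5 of 19, with 5 (8 without NB1, XB1, XB2, XB3 or XB4) higher and 0 (0 unadjusted, 0 by DESeq2) lower (2 higher and 0 lower of the 2 with a level in biobots). The notochord list's calls were not.L, not.S, gsc.L, col2a1.S and col2a1.L, a collagen that other tissues of the head also make, at 45.6, 30, 64.5 and 62.3 CPM in NB1 to NB4 and 5.76, 6.62, 5.17 and 4.72 CPM in XB1 to XB4 (log2 difference 3.18 ± 0.26, adjusted p = 2.21e-05). hand2.L, a factor of heart and neural crest derivatives, stood at 8.27, 22.4, 17.1 and 21.1 CPM in NB1 to NB4 and 2.97, 0.742, 1.92 and 0.546 CPM in XB1 to XB4 (log2 difference 3.49 ± 0.53, adjusted p = 0.000601), and heart regulators were higher in 4 (9 without NB1, 8 without XB1) and lower in 1 of 10 (3 higher and 1 lower of the 9 with a level in biobots). Blood genes were higher in 2 and lower in 2 of 14 (1 higher and 1 lower of the 5 with a level in biobots), endoderm genes in 1 and 3 of 6 (0 higher and 2 lower of the 3 with a level in biobots), and germ line genes in 2 and 1 of 12 (1 higher and 1 lower of the 10 with a level in biobots). The globin hba3.L was called lower on 1 pool alone, with 0.6, 0.762, 0.263 and 0.418 CPM in NB1 to NB4 and 0.326, 0.357, 168 and 0.0963 CPM in XB1 to XB4 and overlapping pools (adjusted p = 0.0384). Without XB3 its log2 difference was 0.95 (adjusted p = 0.307). Endothelial genes were higher in 9 (22 without NB1, 16 without XB1, XB2 or XB4, 17 without XB3) and lower in 2 of 18 (2 higher and 2 lower of the 9 with a level in biobots), with aplnr.L, the apelin receptor, at 10.1, 36.8, 24.3 and 20.4 CPM in NB1 to NB4 and 2.03, 1.73, 2.8 and 2.18 CPM in XB1 to XB4 (log2 difference 3.39 ± 0.37, adjusted p = 9.8e-05). The endothelial markers kdr, cdh5, pecam1 and tie1 summed to 1.96, 19.2, 11.1 and 10.9 CPM in NB1 to NB4 and 1.64 to 2.79 CPM in biobots, with NB1 in the biobot range and the other neurobot pools above it. Of these only tie1.L passed the filter on low counts. cdh5.L and pecam1.L stood above tie1.L in NB2 to NB4 but were low in NB1 and in biobots, and so were not tested.

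By annotation, 84 of 680 tested long noncoding RNAs were higher and 28 lower, and of 1513 genes described as uncharacterized 169 and 171. Both homeologs were tested for 5993 genes. Both copies were higher in 836 pairs and lower in 326, and they were called in opposite directions in 28 pairs with the L copy higher and 28 with the S copy higher. mdh1.L, cytosolic malate dehydrogenase, was higher at 120.1, 135, 75.4 and 86.3 CPM in NB1 to NB4 and 67.9, 62.8, 73.6 and 68.4 CPM in XB1 to XB4 (log2 difference 0.61 ± 0.20, adjusted p = 0.0384, and 0.0573 to 0.114 without NB1, NB2, XB1, XB2, XB3 or XB4, and 0.0504 with no filter on low counts, and 0.0841 without NB1 and XB1), and mdh1.S lower at 144, 105, 64.6 and 67.2 CPM in NB1 to NB4 and 157, 159, 156 and 171 CPM in XB1 to XB4 (log2 difference -0.76 ± 0.25, adjusted p = 0.0408, and 0.063 to 0.108 without NB2, NB3, NB4, XB1, XB2, XB3 or XB4). capn2.L, a calpain protease, was lower at 893, 623, 710.2 and 647 CPM in NB1 to NB4 and 1184, 1296, 1322 and 1314 CPM in XB1 to XB4 (log2 difference -0.83 ± 0.19, adjusted p = 0.00713), and capn2.S higher at 8.69, 23.9, 41.4 and 32.7 CPM in NB1 to NB4 and 13.2, 4.5, 4.45 and 2.99 CPM in XB1 to XB4 with overlapping pools (log2 difference 2.09 ± 0.53, adjusted p = 0.0125). dsg2.L, a desmosomal cadherin, was lower at 119, 107, 166 and 179 CPM in NB1 to NB4 and 421, 327, 256 and 310.1 CPM in XB1 to XB4 (log2 difference -1.20 ± 0.23, adjusted p = 0.00251), and dsg2.S higher at 10.2, 7.11, 8.54 and 5.26 CPM in NB1 to NB4 and 0.725, 1.18, 1.11 and 0.963 CPM in XB1 to XB4 (log2 difference 2.96 ± 0.30, adjusted p = 6.39e-05). Near-identical reads can pass between such copies.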

How the data were processed

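RNA was taken from pools of whole bots, equal amounts were made into low-input polyA libraries without strand, and paired reads were aligned and counted by the authors. Per the submitters' processing notes the tools included HISAT2 2.0.5, StringTie 1.3.3b, featureCounts 1.5.0-p3 and DESeq2 1.20.0. The authors deposited whole-number counts for 44478 genes of Xenopus laevis assembly version 10.1 and, beside them, FPKM values, scaled to gene length and reads. The table's columns of fold changes and p-values for the authors' own comparisons were not used. Of the gene IDs, 44453 matched the RefSeq gene table.

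Counts of the 8 libraries were scaled by TMM, filtered with filterByExpr (minimum count 10, minimum total 15) and tested with edgeR 4.0.16 (robust glmQLFit, glmQLFTest) in R 4.3.3, with Benjamini-Hochberg adjustment over all tested genes. Levels are CPM on the TMM-scaled libraries. FPKM was used only to compare tubulins within libraries. On simulated counts with 200 changed genes the test recovered 167 with the right sign and made 6 false calls among 24082 genes. The changed genes had a mean over 1 CPM and a log2 change of 2 in either direction. Genes were drawn independently, with no submission effect and no outlying pool, and far fewer were changed than were called in the data. These numbers are therefore not the error rate of the comparison itself. Replicates are separate pools of bots, so p-values measure the spread between these pools. 78 gene lists were built from symbols and descriptions, and 277 genes sit in more than 1 list. Members and lists were chosen with earlier results of these data known. Genes were named by a rule: marker genes per tissue and their homeologs, in each list the most abundant member, the most abundant 2 called in each direction and the largest fold in each direction without overlap, and the 5 most abundant opposite homeolog pairs. Exceptions are stated, and some genes that the rule names are not reported here. A gene with no count in any biobot library has its fold set against 3 counts in each library. The medians of lists use the same floor. Alternatives were other scalings, filters, DESeq2 1.42.0, all 12 libraries, a submission term, a replicate block and leaving out pools.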

Additional observations from a re-analysis of the deposited data

Results flagged for a closer look

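Among 280 sets of 4 pools whose values the report gives (genes and summed lists), 43 had a pool so far from the other 3 that the gap took up most of the whole range. Chance flags about 1 in 20 sets of independent values, and these genes are not independent. That rate does not hold for genes with reads in a single pool of a group, which are always flagged, so the total cannot be set against it. NB1 was that pool most often. It was the highest neurobot pool for LOC108700933 at 68 CPM, atp5f1a.L at 809 CPM, atp6v1b1.L at 410.4 CPM, atp6v1c2.L at 99.4 CPM, capn8.2.L at 719 CPM, cldn4.S at 521 CPM, foxi1.L at 77.8 CPM, foxi1.S at 23.2 CPM, foxi2.S at 15.8 CPM, gad1.2.S at 24.2 CPM, glul.L at 2386 CPM, htr3a.L at 137 CPM, id2.L at 87.8 CPM, igf3.L at 287 CPM, kcna4.S at 3.38 CPM, ldhb.S at 8502 CPM, mdk.L at 433 CPM and prss8.S at 103 CPM. Most of these are genes that were lower in neurobots, and for them NB1 lay on the side of the biobots. It was the lowest for LOC108715183 at 30.5 CPM and cdh6.S at 9.13 CPM. Of the other neurobot pools, NB2 was the highest for c9.L at 3682 CPM, NB2 was the lowest for foxj1.S at 5.47 CPM and NB3 was the lowest for gls2.L at 12.6 CPM. XB1 was the highest biobot pool for c3.L at 2618 CPM, capn2.S at 13.2 CPM, cdh1.S at 916 CPM, serpine2.L at 18.9 CPM and tuba1a.L at 5.25 CPM. XB1 was the lowest biobot pool for foxi1.L at 88.8 CPM and slc40a1.S at 207 CPM. XB3 was the highest biobot pool for hba3.L at 168 CPM and XB4 for mdh1.S at 171 CPM. Of the summed lists, ionocyte regulators had XB1 as the lowest pool of its group at 620.2 CPM, vacuolar proton pump subunits had NB1 as the highest pool of its group at 5118 CPM and complement, lysozyme, lectin and interferon-response genes had XB1 as the highest pool of its group at 6928 CPM. In genes nearly absent from biobots, a single biobot pool held all of the group's few reads: LOC108702974 with 0.0549 CPM in XB2, LOC108715183 with 0.0642 CPM in XB4, atp6v1g2.L with 0.0362 CPM in XB1, celf3.S with 0.0725 CPM in XB1, cldn5.L with 0.0275 CPM in XB2, cplx1.S with 0.0362 CPM in XB1, crx.L with 0.0325 CPM in XB3 and neurod1.L with 0.0275 CPM in XB2. NB1 and XB1 share a submission and differ from the other pools in the number of bots, and the part of either in these values was not tested.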

How the results depend on the processing

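The counts of genes called higher and lower, 4696 and 2961, stayed within 1.5 times under other scalings, other filters, DESeq2, all 12 libraries, a submission term and a replicate block, except that without the first submission (NB1 and XB1) 4767 genes were lower. Leaving out single pools gave 4215 to 6380 genes higher, 1986 to 4629 lower and 58.0 to 69.5% of called genes higher, the lower count passing 1.5 times only without NB1. Library size alone moved the median log2 difference of all tested genes from 0.03 to 0.13 and the percent of called genes that were higher from 61.3 to 70.5. With a replicate block 4030 genes were higher and 2488 lower. Deviations of same-numbered pools correlated at 0.0662, -0.0062, -0.19 and 0.0479, and those of pools with unlike numbers at -0.183 to 0.25. A low correlation does not exclude a pairing, so whether the numbers pair the pools was not settled. NB1 and XB1 do share a submission. Of the 135 genes with a test in the text, 128 kept their call under the replicate block, foxi1.L gained it (adjusted p = 0.0163) and gli3.S, hes4.S, hba3.L, mdh1.L, ptch1.L and sema3b.L lost it. With single pools left out the log2 difference of glul.L ran from -0.0897 (without NB1) to 0.38 and that of hba3.L from -6.80 to 0.95 (without XB3), so both turned sign once. With no filter on low counts foxi1.S (adjusted p = 0.102), atp6v1b1.L (0.127), hba3.L (0.152) and mdh1.L (0.0504) were not called, and scaled by library size alone erbb3.L (0.0609), foxj1.S (0.0949), otogl2.L (0.0589), sema3b.L (0.197) and hba3.L (0.0505) were not, while foxi1.L was (0.0497). Of the counts of higher and of lower members over the 78 lists, those that moved by over 1.5 times numbered 1 with DESeq2 size factors, 23 with library size alone, 34 with DESeq2, 29 with no filter, 25 with a filter of 1 CPM, 20 with all 12 libraries, 22 with a submission term, 20 with a replicate block, 27 to 49 with 1 pool left out and 62 without the first submission. The count of ribosomal protein genes called higher, 26, ran from 0 with a replicate block to 116 with library size alone. Genes under about 10 counts in 4 libraries could not be tested, and counts of a list's members depend on this limit. The causes of these shifts were not tested.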
